A study of Mus musculus with 59 samples.

Results

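Homeobox and Pax genes outside the Hox clusters encode transcription factors that divide the embryonic brain into regions, and 83 of them were followed here in 3 brain regions of mice given a drug or vehicle. They were chosen by gene symbol alone, from the Dlx, Lhx, sine oculis, Nkx, Irx, Pax, Otx, Meis, Pbx, Barhl and Pou families together with single genes such as Lmx1a, Lmx1b, Isl1, Isl2, Phox2a, Otp and Prox1. The deposited table holds 21935 Ensembl gene IDs, of which 21858 carried a symbol. By family the members were 15 Pou genes, 14 Nkx genes, 12 genes of the LIM class (Lhx, Isl and Lmx1), 9 Pax genes, 6 each of the Dlx, Irx and sine oculis families, 4 Pbx genes, 3 Meis genes, 2 each of Barhl and Otx, and the single genes.

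A homeodomain is a small DNA-binding fold whose core target is a short run of A and T bases, so these proteins take much of their specificity from partners and from a second domain. POU, LIM, paired and sine oculis proteins each carry such an added domain, and the Meis and Pbx proteins of the TALE class bind DNA together with other homeodomain proteins. Many stay active in the adult neurons whose type they helped to set, where they hold on to a region's identity.

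RNA was sequenced from C57BL/6 mice that received IP118/PY115 or vehicle by intraperitoneal injection and were killed 4 h later, in a series on joint activation of PYY and GLP-1 receptors. Brains were frozen, cut at 10 µm, and 4 mm² per animal was laser-captured from each of 3 places: the hypothalamic paraventricular nucleus (PVN), the hypothalamic arcuate nucleus (ARC), and in the hindbrain the nucleus of the solitary tract (NTS). PVN and NTS each gave 10 vehicle and 10 treated libraries, and ARC gave 9 and 10. The labels give no genotype, diet, age or dose for these mice and do not tie libraries to animals, so the regions, which share animals, were taken as independent. Replicates are numbered in accession order.

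Library totals ran from 3964093 to 28510118 counts. Levels are CPM, counts scaled to 1000000 per library with TMM factors. The PVN vehicle libraries were shallower than the treated ones, with medians of 8612590 and 12241201 counts, and vehicle libraries 3 and 8 were the only PVN libraries under 0.5 of the region's median. The dissections carried most of their own markers. Of 8 listed PVN genes, 7 were higher and 1 lower in PVN than in ARC, and likewise against NTS. All 10 tested ARC genes were higher in ARC than in PVN, while 8 were higher and 1 lower than in NTS. Of 10 NTS genes, 9 were higher and 1 lower in NTS than in each hypothalamic region. In laser-captured tissue, fewer cells of a type and less RNA per cell cannot be told apart.

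Some libraries stood apart. The vehicle and treated libraries numbered 1 lay with the other treatment in results over all genes: in NTS, vehicle 1 held 39.7 CPM of Fosb, an early gene of neuronal activity, where its 9 fellow libraries ranged from 0.141 to 2.70 CPM. Treated 1 held 0.857 CPM, where its 9 fellows ranged from 18.9 to 48.8 CPM. All libraries were kept under their labels, and treatment results that move are also given without those numbered 1. Leaving them out is a choice made on the outcome itself, which makes the resulting p-values too small. ARC treated library 2 and PVN vehicle library 10 also stood apart, in ways described beside the genes concerned. PVN vehicle libraries 8, 9 and 10 and ARC vehicle libraries 8 and 9 are titled 5553 to 5557, with no treated library among them. The other PVN libraries are titled 5465 to 5484 and the other ARC libraries 5509 to 5528. Number block and treatment are thus partly confounded in PVN and ARC, and the labels do not say what the numbers mean.

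In vehicle mice, 38 of the 83 members reached a mean of 10 CPM in at least 1 region, 12 reached 1 to 10 CPM at most and 33 stayed under 1 CPM in every region. At 10 CPM or more were 19 members in PVN, 21 in ARC and 23 in NTS. Only 9 reached 10 CPM in all 3 regions, while 17 reached it in 1 region and stood under 1 CPM in another. The plot of member levels over all libraries shows these blocks.

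**Figure D1:**
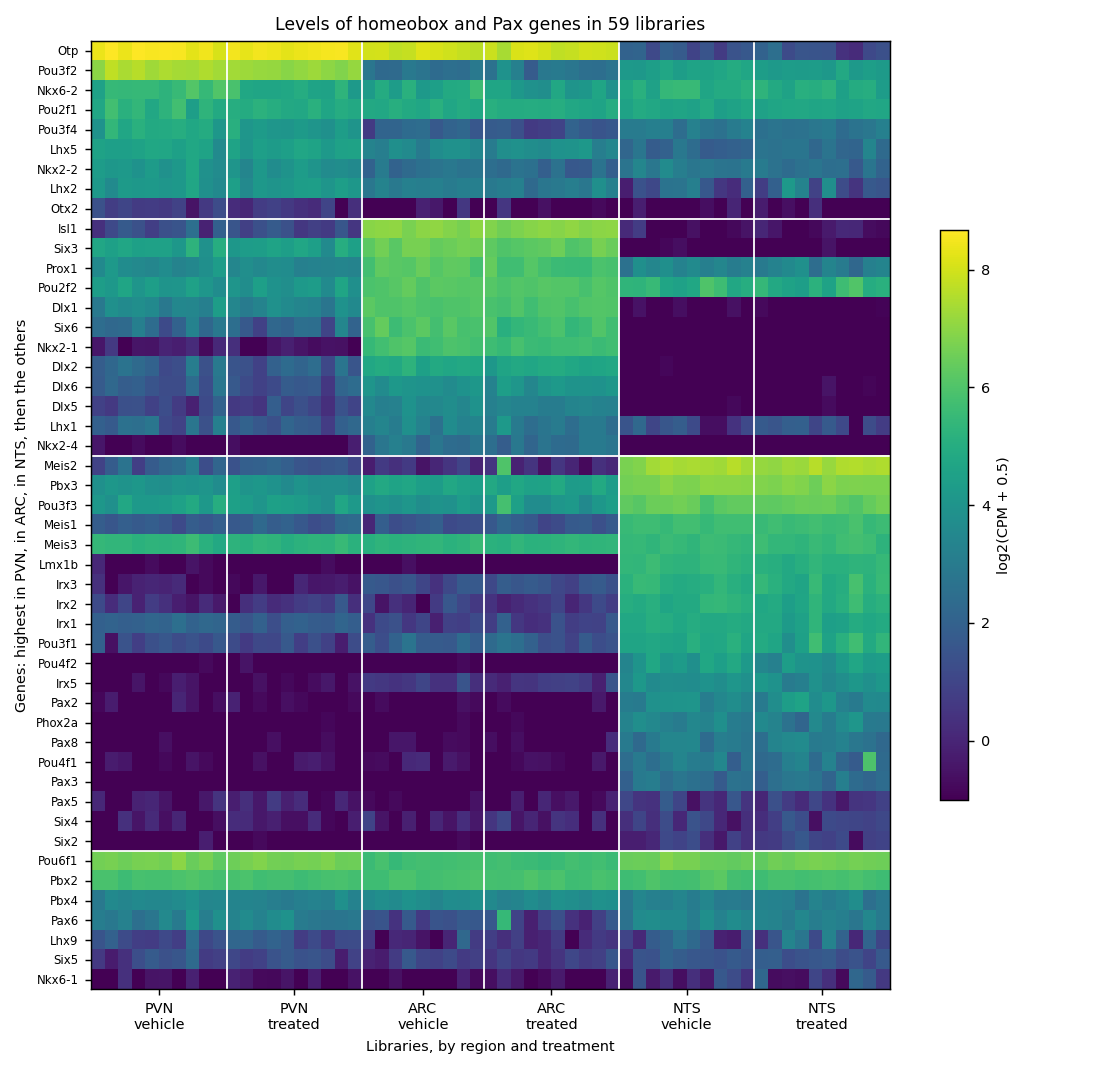
Levels, as log2(CPM + 0.5), of member genes in the 59 libraries. Each column is a library, grouped by region and treatment, and each line of cells is a gene, grouped by the region where its vehicle level was highest (white lines), with the members that had no single highest region and a vehicle mean of at least 1 CPM at the bottom. Within a region, vehicle and treated columns look alike, and ARC treated library 2 stands out in Meis2, Pou3f3 and Pax6.

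The question of the region comparison is which members set the 3 nuclei apart in untreated tissue. Vehicle groups were compared in 1 edgeR quasi-likelihood fit of all 59 libraries and 14379 genes, and a gene was called where its p, adjusted by Benjamini-Hochberg over all genes tested (FDR), was under 0.05. Of the 83 members, 51 passed the low-count filter. Between PVN and ARC, 33 of the 51 were called, 15 higher and 18 lower in PVN, where 46% of all tested genes were called. Between PVN and NTS, 45 were called, 21 higher and 24 lower in PVN, against 56.1% of all genes. Between ARC and NTS, 46 were called, 17 higher and 29 lower in ARC, against 61.7% of all genes. The median size of the difference was 1.35, 3.10 and 3.59 log2 units for the tested members in these 3 contrasts, and 0.23, 0.28 and 0.32 for all tested genes. A gene passes the filter on its level in a single group, so a member confined to 1 region could pass only by differing, and these counts describe the members without supporting more. Without that filter, the vehicle libraries of 2 regions did not overlap at all for 22 of the 83 members between PVN and ARC, 29 between PVN and NTS and 35 between ARC and NTS. The same was true of 7.68%, 8.68% and 14.9% of all genes in the table.

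By highest region, 9 members were called higher in PVN than in both other regions, 13 in ARC and 22 in NTS. Of all 14379 tested genes, 10.8% were called higher in PVN than in both others, 13.5% in ARC and 19.2% in NTS. The families split by region. The 4 tested Dlx genes were highest in ARC, and the 4 tested Irx genes, the 3 Meis genes and 4 of 5 tested Pax genes in NTS. The Pou family was divided, with 3 genes highest in PVN, 1 in ARC, 5 in NTS and 1 with no single highest region.

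In PVN, Otp and Pou3f2 led. Otp (chromosome 13, 94875602 to 94885130, GRCm38) encodes a homeodomain protein needed to form the neuroendocrine neurons of the PVN. Its level ran from 273 through a median of 365 to 405 CPM in PVN, and from 203 through 249 to 296 CPM in ARC. In NTS it ran from 1.12 through 2.52 to 3.80 CPM. Otp was thus a gene of both hypothalamic nuclei: the PVN and ARC libraries overlapped, with a mean 1.45-fold higher in PVN (log2 difference 0.54 ± 0.11, FDR = 4.1e-05), while no NTS library came near them and the mean was 139.8-fold lower there than in PVN. Per kilobase of exon, Otp had the highest level of all members in PVN (123 CPM per kb) and in ARC (84.7 CPM per kb).

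Pou3f2 (Brn2; chromosome 4, 22482780 to 22488366), a POU factor required for the corticotropin-releasing hormone, vasopressin and oxytocin neurons, was the member that most sharply marked PVN against the neighbouring ARC. It ran from 128 through a median of 168 to 213 CPM in PVN, from 4.42 through 5.20 to 7.07 CPM in ARC and from 17.4 through 23.5 to 30.2 CPM in NTS. No libraries of the 3 regions overlapped. The mean was 30.6-fold higher in PVN than in ARC (log2 4.93 ± 0.15, FDR = 4.1e-37) and 7.40-fold higher than in NTS.

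Its relatives were divided. Pou3f4, a POU factor of the same class, had the same order of regions at a lower level, at 28.03 ± 7.78 CPM in PVN (mean ± SD, n = 10), at 3.52 ± 1.20 in ARC (n = 9) and at 7.48 ± 1.44 in NTS (n = 10). Pou3f3 and Pou3f1, the other genes of the class, were instead highest in NTS, at 80.3 ± 11.2 and 27.1 ± 3.85 CPM. Pou3f1 stood at 2.04 ± 0.90 CPM in PVN and Pou3f3 at 21.4 ± 6.14. Pou2f1, a widely expressed octamer-binding factor, was highest in PVN by a small margin, at 36.1 ± 10.9 CPM, where ARC had 28.9 ± 3.09 and NTS 24.95 ± 3.01. With treated groups in place of vehicle groups its PVN to ARC difference went from 0.32 to 0.04 log2 units (edgeR FDR = 0.761), so its rank also rests on the vehicle libraries.

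The promoters of Pou3f2 and Pou3f4 are shown because these related genes were both highest in PVN. They are the 250 bases before the RefSeq start (GRCm38.p6), 5′ to 3′ on the gene's strand, at chr4:22488367-22488616 (minus strand) and chrX:110814129-110814378 (plus strand). Capitals mark CCAAT or its reverse ATTGG, a general promoter element. TGACAG or its reverse CTGTCA, a site bound by Meis and TGIF proteins, was searched as well and is in neither window.
Pou3f2: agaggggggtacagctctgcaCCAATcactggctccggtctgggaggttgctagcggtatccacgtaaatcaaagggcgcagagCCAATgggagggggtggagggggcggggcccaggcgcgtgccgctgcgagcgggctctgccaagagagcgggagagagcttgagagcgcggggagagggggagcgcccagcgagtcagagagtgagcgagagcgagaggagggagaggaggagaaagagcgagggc
Pou3f4: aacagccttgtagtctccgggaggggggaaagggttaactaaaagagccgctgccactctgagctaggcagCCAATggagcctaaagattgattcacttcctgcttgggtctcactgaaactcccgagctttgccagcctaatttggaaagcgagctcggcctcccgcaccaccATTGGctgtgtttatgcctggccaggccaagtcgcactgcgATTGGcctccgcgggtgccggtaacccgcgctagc
CCAAT was found on either strand in 2 places in the Pou3f2 window and 3 in that of Pou3f4. Of the 32851 windows in the RefSeq table, 33.85% held it, as did 38.5% of the 78 windows of the 61 members that had one. The octamer ATGCAAAT (reverse ATTTGCAT), the classical site of POU factors, was in 1.60% of all windows and in 0 of the 78. A match is a description of letters and not a binding site, and no match says only that these letters are not in this window.

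The remaining PVN genes were lower. Nkx6-2, a repressor found in myelinating oligodendrocytes, stood at 45.6 ± 12.6 CPM in PVN, 27.8 ± 9.79 in ARC and 33.5 ± 8.30 in NTS. With treated groups in place of vehicle groups its PVN to NTS difference turned from 0.42 to -0.0084 log2 units, so its rank rests on the vehicle libraries. Nkx2-2, which acts in oligodendrocyte precursors and in ventral neurons, stood at 17.3 ± 4.11 CPM in PVN, 5.52 ± 1.38 in ARC and 7.67 ± 2.11 in NTS. Lhx5 and Lhx2, LIM factors of diencephalic development, stood at 22.5 ± 4.23 and 16.9 ± 4.12 CPM in PVN, at 11.3 ± 2.63 and 8.15 ± 0.95 in ARC, and at 4.20 ± 1.40 and 3.23 ± 2.72 in NTS. Otx2, a forebrain and midbrain factor, was called higher in PVN at only 1.252 ± 0.52 CPM, and Lhx6, a factor of migrating inhibitory neurons, stood under 1 CPM in each vehicle group.

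PVN vehicle library 10 departed from its group in several of these. It had the lowest Otp (273 CPM) and Lhx5 (11.8 CPM, against 21.2 to 26.6 in the other 9), and the highest Dlx1 (20.5 CPM, against 6.88 to 13.7) and Pou3f3 (32.1 CPM). It also had the lowest summed level of the 8 PVN neuron genes, 9013 CPM in a group that reached 21530 CPM. Its sums of thalamus and habenula (1011 CPM), cerebellum (770.0 CPM) and astrocyte genes (4091 CPM) were the highest of the group. So were its microglia (379.9 CPM), oligodendrocyte precursor (281.6 CPM) and general neuron (5091 CPM) sums. The same held for its ARC neuron (241.4 CPM) and NTS neuron (245.6 CPM) genes. The part of other tissue or cell types in the values of that library was not tested.

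In ARC, a larger set of hypothalamic and forebrain factors was highest. Nkx2-1 (chromosome 12, 56531958 to 56536908), which specifies the ventral hypothalamus, ran from 44.4 through 52.5 to 68.3 CPM in ARC and from 0 through 0.311 to 1.01 CPM in PVN. It had no count in any NTS library. The ARC mean was 146-fold that of PVN, and at least 2368-fold higher than in NTS, taking 3 counts over the NTS vehicle group as the floor. Its relative Nkx2-4 had the same pattern at a lower level, 5.77 ± 1.66 CPM in ARC, 0.0486 ± 0.0862 in PVN and no count in NTS.

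Isl1 (chromosome 13, 116298281 to 116309689), a LIM factor that drives Pomc in arcuate neurons, ran from 103 through 127 to 134 CPM in ARC. It stayed between 0.458 and 5.24 CPM in PVN and at or below 1.14 CPM in NTS. The ARC libraries overlapped none of the others, and the ARC mean was 55.1-fold that of PVN (log2 5.97 lower in PVN, ± 0.22, FDR = 1.0e-31). Lhx1, a LIM factor known from the suprachiasmatic nucleus, was highest in ARC at 9.599 ± 2.37 CPM, where PVN had 4.38 ± 2.43 and NTS 1.83 ± 1.29.

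Six3 and Six6, related factors of the anterior forebrain, hypothalamus and eye, were high in ARC, lower in PVN and nearly silent in NTS. Six3 ran from 72.7 through 95.3 to 102 CPM in ARC and from 14.4 through 22.5 to 37.1 CPM in PVN, and NTS held 2 counts over 10 vehicle libraries. Six6 ran from 49.2 through 59.3 to 82.95 CPM in ARC and from 1.78 through 4.72 to 9.22 CPM in PVN, with no count in NTS. The ARC and PVN libraries did not overlap for either gene. ARC exceeded PVN 3.76-fold for Six3 and 11.95-fold for Six6, and exceeded NTS at least 2594-fold for Six6.

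The Six3 and Six6 promoters are shown as the pair of related genes with the same order of regions, from RefSeq as before, at chr17:85620584-85620833 and chr12:72939632-72939881 (both plus strand). Capitals mark TGACAG or CTGTCA and CCAAT or ATTGG.
Six3: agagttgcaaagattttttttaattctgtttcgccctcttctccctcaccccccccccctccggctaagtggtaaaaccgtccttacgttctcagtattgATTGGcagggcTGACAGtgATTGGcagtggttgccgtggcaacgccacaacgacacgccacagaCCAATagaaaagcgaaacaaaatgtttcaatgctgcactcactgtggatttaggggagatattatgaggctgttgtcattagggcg
Six6: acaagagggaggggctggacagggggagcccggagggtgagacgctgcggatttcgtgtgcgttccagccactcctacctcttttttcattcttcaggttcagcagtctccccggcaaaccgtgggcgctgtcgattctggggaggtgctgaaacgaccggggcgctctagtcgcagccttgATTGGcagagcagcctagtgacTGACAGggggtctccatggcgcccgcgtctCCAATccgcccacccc
TGACAG lay at bases -139 to -134 from the start in the Six3 window and at -46 to -41 in the Six6 window, each with a CCAAT box on both sides. Of all windows 15.9% held TGACAG on either strand, as did 14.1% of the members' windows.

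The Dlx genes, which promote inhibitory neurons, came as 3 neighbouring pairs, of which 1, Dlx3 and Dlx4 on chromosome 11, stayed at or below 0.202 CPM on average in every vehicle group. Dlx1 and Dlx2 on chromosome 2 stood at 65.2 ± 4.68 and 28.3 ± 4.13 CPM in ARC, and at 11.4 ± 3.97 and 4.21 ± 2.16 in PVN. Dlx6 and Dlx5 on chromosome 6 stood at 14.8 ± 1.83 and 11.3 ± 2.23 CPM in ARC, and at 3.29 ± 1.496 and 1.66 ± 0.85 in PVN. These 4 genes were at or below 0.05 CPM on average in NTS, where their counts over the vehicle group were 5, 1, 0 and 1. Each was 4.50-fold to 6.83-fold higher in ARC than in PVN by the ratio of means, and no ARC and PVN vehicle libraries overlapped for any of them.

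Prox1, a factor of neurogenesis and of dentate and thalamic neurons, stood at 71.2 ± 10.8 CPM in ARC, 12.9 ± 3.39 in PVN and 9.97 ± 2.55 in NTS. Pou2f2, an octamer-binding factor best known from B cells, stood at 69.6 ± 6.44, 18.3 ± 3.79 and 36.9 ± 12.9 CPM in the same order.

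**Figure D2:**
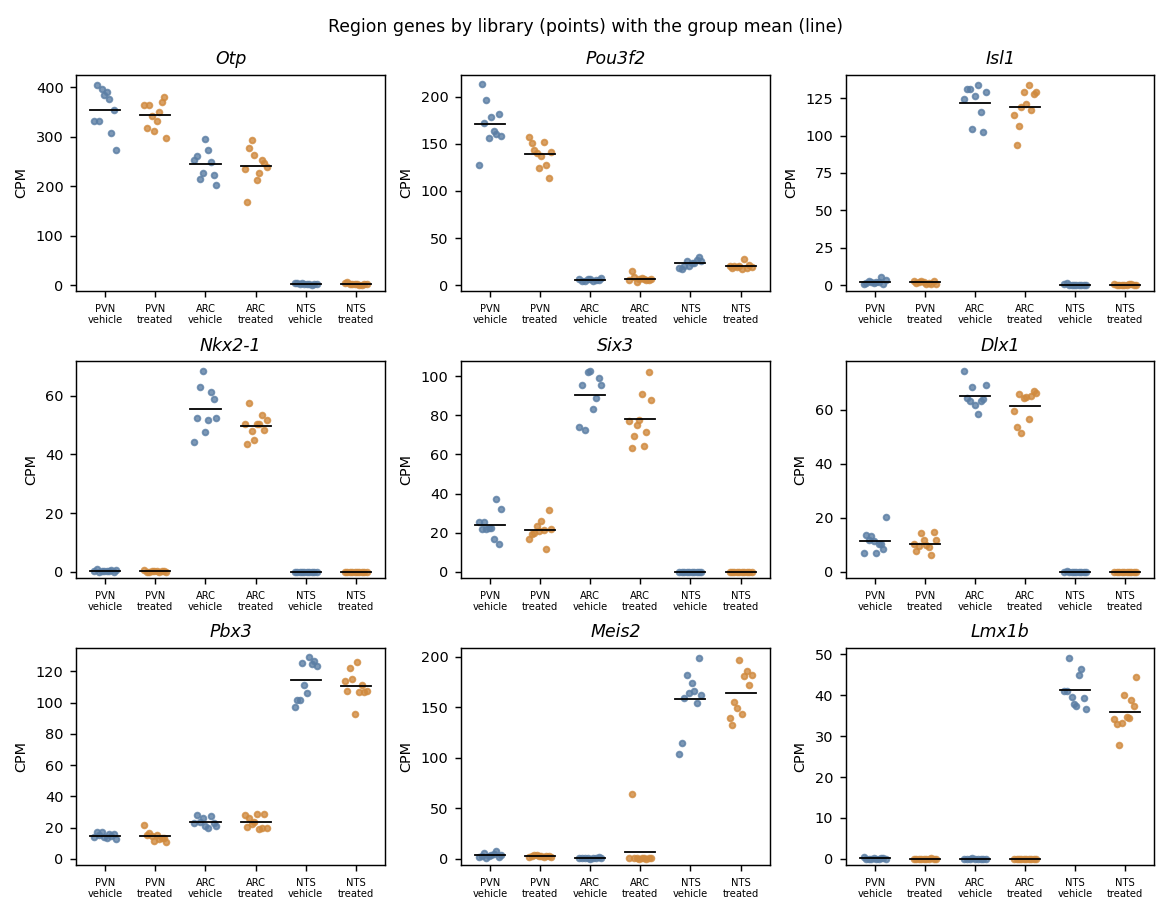
CPM of 9 members in each library (points; blue vehicle, orange treated) with the group mean (line), on linear axes that differ between panels. Otp is high in PVN and ARC, Pou3f2 in PVN, Isl1, Nkx2-1, Six3 and Dlx1 in ARC, and Pbx3, Meis2 and Lmx1b in NTS, and 1 ARC treated library carries Meis2 at 64.3 CPM.

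In NTS, a set of hindbrain factors was highest. Phox2a, a factor of noradrenergic and visceral neurons, stood at 9.84 ± 2.30 CPM in NTS, with no count in the PVN vehicle libraries and 1 in those of ARC. The NTS mean was at least 285-fold higher than in PVN, against a floor of 3 counts over the group.

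Lmx1b (chromosome 2, 33560965 to 33640511), a LIM factor of serotonin and dorsal hindbrain neurons, ran from 36.6 through 40.3 to 49.1 CPM in NTS and reached at most 0.563 CPM in PVN and 0.165 CPM in ARC. Its paralog Lmx1a was at most 0.443 CPM in any vehicle group. Lhx3 and Lhx4, LIM factors of motor neurons and of the pituitary, also stayed under 1 CPM in each.

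The TALE genes split between specific and general ones. Meis2 ran from 104 through 163 to 198 CPM in NTS, from 1.23 through 3.50 to 8.17 CPM in PVN and from 0.215 through 0.766 to 1.496 CPM in ARC. Meis1 stood at 49.4 ± 3.42 CPM in NTS, against 2.82 ± 0.49 in PVN and 2.21 ± 0.85 in ARC, and Pbx3 at 115 ± 12.2 against 14.9 ± 1.56 and 23.6 ± 2.89. Both had no overlap between NTS and the other regions. Meis3, in contrast, stood at 43.8 ± 3.38, 38.8 ± 5.41 and 38.7 ± 3.77 CPM in NTS, PVN and ARC, and its calls rest on differences of 0.17 and 0.18 log2 units. Pbx2 stood at 57.4 ± 4.37, 56.2 ± 4.50 and 57.9 ± 7.87 CPM in PVN, ARC and NTS, with log2 differences of 0.03 ± 0.06 for PVN over ARC, -0.01 ± 0.06 for PVN over NTS and -0.04 ± 0.06 for ARC over NTS, none of them called.

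The Irx genes lie in 2 clusters, and the 4 that were tested were all highest in NTS. Irx1 and Irx2 on chromosome 13 stood at 29.02 ± 2.07 and 33.4 ± 6.07 CPM in NTS, and Irx3 and Irx5 on chromosome 8 at 35.7 ± 5.96 and 13.6 ± 2.06. In PVN the same genes stood at 3.88, 0.781, 0.314 and 0.0882 CPM on average, and in ARC at 1.32, 1.03, 2.17 and 1.12. Between the hypothalamic nuclei these genes differed: Irx1 was higher in PVN than in ARC (log2 1.54 ± 0.20, FDR = 2.0e-09), while Irx3 and Irx5 were lower in PVN (log2 -2.53 ± 0.32 and -3.63 ± 0.47). Irx2, the neighbour of Irx1, was not called between them (log2 -0.37 ± 0.38, edgeR FDR = 0.435), and its PVN and ARC vehicle libraries overlapped. Irx4 and Irx6, the third gene of each cluster, stayed under 1 CPM in every vehicle group.

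The Pax genes of the hindbrain were present at modest levels. Pax2, of inhibitory interneurons, stood at 11.8 ± 3.47 CPM in NTS, Pax8 at 7.70 ± 2.23 and Pax3, of dorsal progenitors, at 5.42 ± 1.56. In PVN and ARC their vehicle means did not exceed 0.124 CPM, and Pax3 had no count there in vehicle or treated libraries. Pax6 was the exception in the family, at 9.48 ± 3.99 CPM in PVN, 10.7 ± 2.43 in NTS and 2.15 ± 0.73 in ARC. Pou4f2, a Brn3 factor of sensory systems, stood at 19.7 ± 6.16 CPM in NTS, with 1 count over the vehicle libraries of each hypothalamic region.

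Neighbouring members did not always share a pattern. Within 1000000 bases of another member lay 31 of the 83, in 13 clusters. Dlx1 with Dlx2 and Dlx5 with Dlx6 shared ARC as their highest region, and the 4 tested Irx genes shared NTS, but Six3 and Six2 on chromosome 17 were opposite: Six3 stood at 24.04, 90.4 and 0.0208 CPM in PVN, ARC and NTS, and Six2 at 0.0367, 0.00978 and 0.946. On chromosome 2, Nkx2-4 and Nkx2-2 are neighbours, and their highest regions were ARC and PVN. On chromosome 12, Nkx2-1 was an ARC gene and its neighbours Nkx2-9 and Pax9 stayed under 1 CPM in every vehicle group.

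The 33 members under 1 CPM in every vehicle group include Nkx2-3, Nkx2-5, Nkx2-6, Pou4f3 and Pou5f1, which had no vehicle count. Pou4f3, of inner ear hair cells, and Pou5f1, of pluripotent cells, had no count in any of the 59 libraries. Highest among the 33 was Six2, at 0.946 CPM in NTS, and just above the limit stood Nkx6-1, at 1.01 CPM in NTS.

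Genes that work with the members were checked as lists. Of all tested genes, 24.8% were called higher and 21.1% lower in PVN than in ARC. These shares were 28.3% and 27.8% for PVN over NTS, and 30.2% and 31.5% for ARC over NTS. Of 5 other TALE genes, which include the Meis relatives Pknox1 and Pknox2 and the Meis competitor Tgif1, 5 of 5 were lower in PVN than in NTS and 5 of 5 lower in ARC than in NTS, with median log2 differences of -0.99 and -1.28 (all genes 0.00 and -0.01). Tgif1 stood at 4.38 ± 1.37 CPM in NTS, 1.46 ± 0.61 in PVN and 1.15 ± 0.74 in ARC. Of 6 Eya and Dach genes, whose products form complexes with proteins such as Six3, 4 were higher and none lower in PVN than in ARC. Against NTS, 3 were higher and 3 lower in PVN, while 0 were higher and 2 lower in ARC. Eya1 stood at 17.2 ± 1.74 CPM in NTS, 2.14 ± 0.79 in PVN and 2.41 ± 0.78 in ARC, and so was low where Six3 and Six6 were high. Of 10 LIM cofactors and LIM-only genes, 4 were higher and 6 lower in PVN than in ARC. Against NTS, 5 were higher and 2 lower in PVN, while 6 were higher and 3 lower in ARC. The LIM-only gene Lmo3 was the widest apart from NTS, at 101.0 ± 13.2 CPM in PVN and 69.95 ± 5.96 in ARC against 29.5 ± 7.33 in NTS.

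Within a region, 9 pairs of genes were compared across libraries, of which 6 are given here, after removing each group's mean from log2(CPM + 0.5). Pou3f2 moved with Sim1, the partner PVN selector, over 20 PVN libraries (Pearson r = 0.84, Spearman rho = 0.83, permutation test with adjusted p = 2.7e-04 over the 9 pairs; r = 0.83 without the 2 libraries farthest from the Pou3f2 median). Otp did not show such a relation with Sim1 (r = 0.36, rho = 0.34, adjusted p = 0.161, permutation test; r = 0.11 without 2 libraries), nor Pou3f2 with Crh (r = -0.30, rho = -0.10, adjusted p = 0.22, permutation test), whose r was 0.19 without the libraries numbered 1. In ARC, Otp moved with Agrp, the hunger peptide gene, over 19 libraries (r = 0.76, rho = 0.73, adjusted p = 7.2e-04, permutation test; r = 0.64 without 2). Isl1 with Pomc (r = 0.39, rho = 0.17, adjusted p = 0.144) and Nkx2-1 with Tbx3 (r = 0.30, rho = 0.22, adjusted p = 0.22) did not pass the permutation test.

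Libraries of a region share the cut of the dissection as well as depth, and the part of either was not tested. Pairs and libraries can be read from the plot of deviations.

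**Figure D3:**
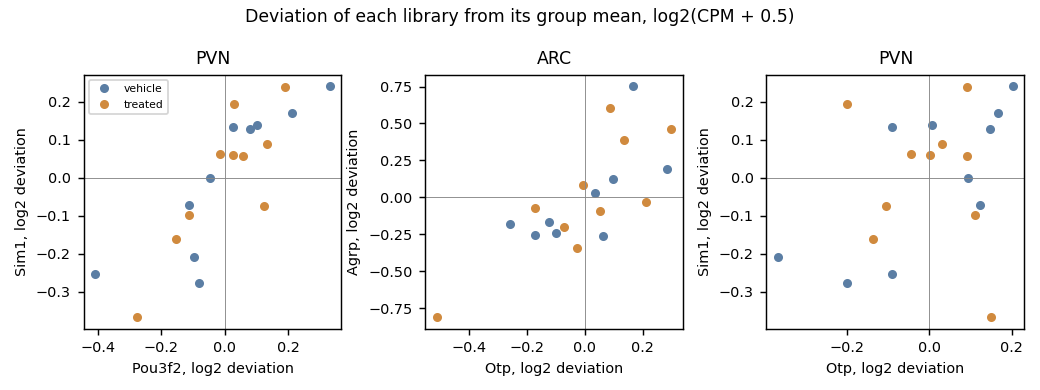
Deviation of each library from its group mean in log2(CPM + 0.5), for Pou3f2 against Sim1 in PVN, Otp against Agrp in ARC and Otp against Sim1 in PVN (blue vehicle, orange treated). The first 2 panels rise from lower left to upper right (r = 0.84 and 0.76) and the last is scattered (r = 0.36).

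The treatment comparison is between members in mice given IP118/PY115 and in mice given vehicle, region by region. Few differences passed the test. In PVN, 1 of the 33 tested members was called, where 0.656% of all 13409 tested genes were: Pou3f2 fell, from a vehicle mean of 171 ± 23.6 CPM to a treated mean of 139 ± 13.5 CPM (SD, n = 10 each; log2 fold change -0.30 ± 0.07; edgeR quasi-likelihood test, FDR = 0.0475). Vehicle libraries ran from 128 through 168 to 213 CPM and treated libraries from 114 through 141 to 158 CPM. All 10 treated libraries lay under the vehicle median, but the groups overlapped.

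The overlap came largely from the libraries numbered 1. Vehicle 1 was the lowest of its group (128 CPM) and treated 1 the highest of its own (158 CPM). The other 9 vehicle libraries ran from 157 to 213 CPM and the other 9 treated libraries from 114 to 152 CPM, with no overlap. Sim1, which moved with Pou3f2 across libraries, stood at 112 CPM in vehicle 1, against 110.0 to 158 CPM in the other 9, and was highest in treated 1 (152 CPM). Its vehicle mean was 134.5 ± 17.5 CPM and its treated mean 129 ± 15.6 CPM. None of the 8 PVN neuron genes was called, and their summed levels ran from 9013 to 21530 CPM in vehicle and from 11710 to 18140 CPM in treated libraries. The part of PVN neuron content in the fall of Pou3f2 was not tested.

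The next members had the same shape without passing the edgeR test. Pou3f4 stood at 28.03 ± 7.78 CPM in vehicle and 18.6 ± 5.76 in treated libraries (log2 -0.58 ± 0.17, edgeR FDR = 0.14), with vehicle 1 at 14.8 CPM and treated 1 at 34.1 CPM. The other 9 libraries of each group ran from 16.9 to 41.4 CPM and from 13.9 to 20.3 CPM. Nkx6-2 stood at 45.6 ± 12.6 and 29.6 ± 11.4 CPM (log2 -0.61 ± 0.19, edgeR FDR = 0.197), with vehicle 1 at 22.8 CPM and treated 1 at 58.1 CPM. Its other libraries ran from 37.5 to 67.0 CPM in vehicle and from 18.04 to 38.4 CPM in treated mice. With all libraries kept, DESeq2 called Pou3f4 lower (log2 -0.59 ± 0.16, FDR = 0.027). With all libraries kept, limma-voom with quality weights called both Pou3f4 (-0.77 ± 0.13, FDR = 9.3e-04) and Nkx6-2 (-0.65 ± 0.14, FDR = 0.010) lower.

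Without the libraries numbered 1, 3 PVN members were called, all lower: Pou3f2, Pou3f4 (log2 -0.81 ± 0.12, edgeR FDR = 7.7e-05) and Nkx6-2 (log2 -0.87 ± 0.12, edgeR FDR = 1.0e-04). Leaving out vehicle 1 alone or treated 1 alone also gave 3. In the 20 fits that each left out 1 library, the Pou3f2 call held in 3, with FDR from 0.0040 to 0.130 and log2 fold changes from -0.34 to -0.25. The call was also lost with log10 library total as a covariate (log2 -0.27 ± 0.08, edgeR FDR = 0.22). Mature oligodendrocyte genes summed to 959 to 1384 CPM in PVN vehicle and 820 to 1341 CPM in treated libraries, the latter maximum in treated 1. None of the 11 was called with treatment, with a median log2 fold change of -0.13. In vehicle mice all 11 were lower in PVN than in NTS. Nkx6-2 was called higher in PVN than in NTS between vehicle groups (log2 0.42). It was not called between treated groups (log2 -0.0084, edgeR FDR = 0.972) or without the libraries titled 5553 to 5557 (log2 0.24, edgeR FDR = 0.281). The part of oligodendrocyte content in the Nkx6-2 difference was not tested.

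**Figure D4:**
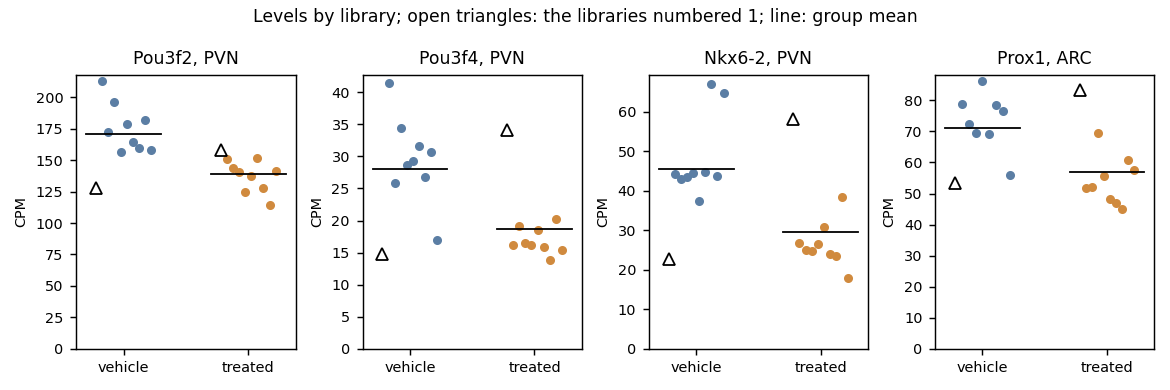
CPM by library for Pou3f2, Pou3f4 and Nkx6-2 in PVN and Prox1 in ARC, in vehicle (blue) and treated (orange) libraries, with the group mean as a line. Open triangles mark the libraries numbered 1, which in each of the 4 panels are the lowest vehicle library and the highest treated library.

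Irx1 (log2 -0.34 ± 0.15, edgeR FDR = 0.456) and Prox1 (-0.26 ± 0.13, FDR = 0.53) completed the 5 PVN members with the smallest p. Of the 33 tested members 29 had a fold change below 0, with a median of -0.16, against 57.6% of all genes and a median of -0.02. Depth moved with treatment in PVN, and with log10 library total as a covariate 25 were below 0 with a median of -0.06. Without vehicle libraries 3 and 8, 26 were below 0 with a median of -0.08. Otp had a small error and a value near 0 (-0.05 ± 0.06). Among the listed regulators outside the 83, the forkhead gene Foxb1 was called lower, at 5.53 ± 2.11 CPM in vehicle and 2.99 ± 0.66 in treated libraries (log2 -0.86 ± 0.19, edgeR FDR = 0.030).

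In ARC, no member was called among 36 tested, and none of 13484 genes was (0.0%). edgeR gave 7 members an unadjusted p under 0.05, against 971 of all genes, and DESeq2 and limma-voom called none either. All 7 were lower with treatment: Prox1, Dlx5, Nkx6-2, Six6, Six3, Pou3f4 and Nkx2-1. Prox1 stood at 71.2 ± 10.8 CPM in vehicle (n = 9) and 57.05 ± 11.7 in treated libraries (n = 10; log2 -0.32 ± 0.11, edgeR FDR = 0.427). Vehicle 1 (53.3 CPM) was its lowest vehicle library and treated 1 (83.3 CPM) its highest treated library. Without both it was called (log2 -0.43 ± 0.08, edgeR FDR = 0.0036). Six6 stood at 63.0 ± 11.1 and 50.8 ± 10.6 CPM (log2 -0.31 ± 0.12, edgeR FDR = 0.53), Six3 at 90.4 ± 11.4 and 77.9 ± 12.4 (-0.21 ± 0.08, FDR = 0.55), and Dlx5 at 11.3 ± 2.23 and 9.18 ± 0.90 (-0.31 ± 0.12, FDR = 0.49). The Otp level was 244 ± 29.8 and 241 ± 35.3 CPM, and that of Isl1 122 ± 11.8 and 119 ± 12.2.

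ARC treated library 2 lay above the other 9 treated libraries in 5 members given here. Meis2 stood there at 64.3 CPM, against 0.0903 to 0.943 CPM in the other 9 treated libraries, and Pax6 at 43.5 CPM, against 0.393 to 2.74. Pou3f3 stood at 55.9 CPM (11.4 to 21.9 in the others), Lhx1 at 18 (4.93 to 7.72) and Pou3f2 at 14.8 (2.94 to 8.73). The same library had the lowest Otp of its group (167 CPM), the lowest Isl1 (93.5 CPM) and the lowest Six6 (33.7 CPM). Lmx1b, an NTS gene, had no count in it. Its mature oligodendrocyte genes summed to 6037 CPM in a group with a median of 975.8 CPM, its ARC neuron genes to 2166 CPM against a median of 3215 CPM, and its NTS neuron genes to 118 CPM, the lowest of the group. It also had the group's highest astrocyte sum (3084 CPM, median 2291) and general neuron sum (4597 CPM, median 3430). Its oligodendrocyte precursor (393 CPM) and endothelial (206 CPM) sums were the highest too. Sums of PVN neuron, ventromedial hypothalamus, thalamus and habenula, cerebellum, pituitary and choroid plexus genes were the lowest of the group. The part of other tissue in these values was not tested. Without this library ARC still had no called member.

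In NTS, no member was called among 40 tested, and none of 13696 genes was (0.0%). edgeR gave 6 members an unadjusted p under 0.05, against 795 of all genes, and DESeq2 and limma-voom called none. Nkx2-2 stood at 7.67 ± 2.11 CPM in vehicle and 5.28 ± 1.35 in treated libraries (log2 -0.55 ± 0.17, edgeR FDR = 0.29), with 9 of 10 treated libraries under the vehicle median. Lmx1b stood at 41.4 ± 4.18 and 35.8 ± 4.56 CPM (-0.21 ± 0.07, edgeR FDR = 0.498), with 9 of 10 under it. Lhx5 stood at 4.20 ± 1.40 and 5.68 ± 1.81 CPM (0.45 ± 0.19, edgeR FDR = 0.72), with all 10 above it. Pou3f2 (-0.21 ± 0.10) and Pax6 (-0.28 ± 0.13) had an edgeR FDR of 0.85.

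**Figure D5:**
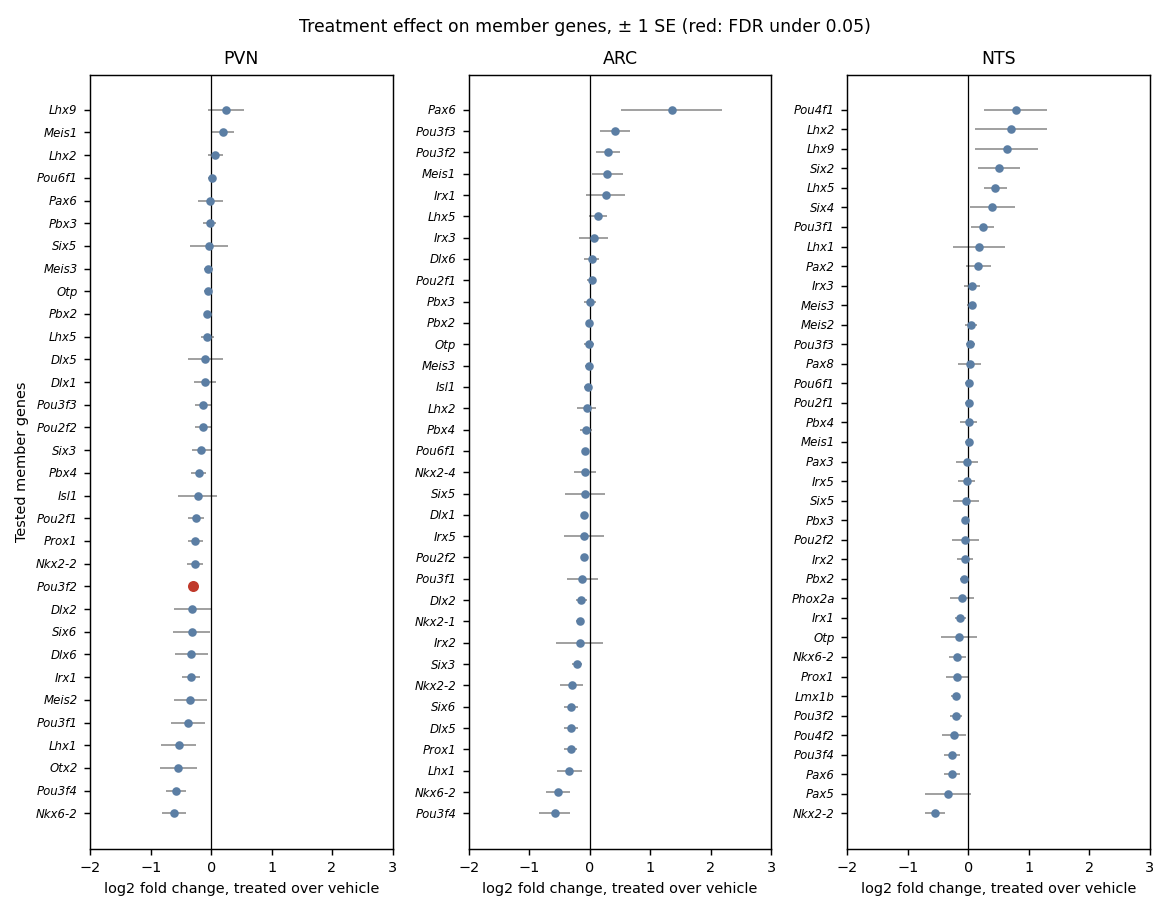
Treatment effect on tested members in PVN, ARC and NTS, as log2 fold change of treated over vehicle ± 1 SE, ordered within each region. The red point, Pou3f2 in PVN, is the member with an FDR under 0.05; the widest bar is Pax6 in ARC, which rests on treated library 2.

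Across regions, no member's treatment effect differed at an FDR under 0.05 (0.0487% of all 14379 genes were called for PVN against ARC, 0.0904% for PVN against NTS and 0.0% for ARC against NTS). An unadjusted p under 0.05 was given by edgeR to 5, 3 and 4 members, and DESeq2 called none. Pou3f2 came nearest in PVN against ARC (log2 difference of effects -0.59 ± 0.19, edgeR FDR = 0.47) and Lmx1b in PVN against NTS (-2.13 ± 0.73, FDR = 0.66), the latter from 12 vehicle and 2 treated counts in PVN. The ARC side of the Pou3f2 value includes treated library 2, at 14.8 CPM against 2.94 to 8.73 in its fellow treated libraries. With single libraries left out in turn, the Pou3f2 log2 fold change in ARC ran from 0.11 to 0.39. Meis2 had the smallest p in ARC against NTS (2.93 ± 0.92, FDR = 0.84) and rests on ARC treated library 2.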

How the data were processed

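The authors deposited whole-number read counts per Ensembl gene for 59 libraries, with no normalization. Per the submitters' processing notes, bcl2fastq 2.20.0.422, STAR 2.5.2a and GRCm38 were used; the counter, its strand setting and the annotation are not given in the sources used here. Reads of overlapping or antisense genes may therefore be shared.

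Symbols and coordinates came from GENCODE vM21 and promoters from RefSeq. Genes were filtered with filterByExpr (minimum count 10, total 15), scaled by TMM and tested with edgeR 4.0.16 (R 4.3.3) by the quasi-likelihood test, within each region for treatment and in 1 fit of all groups for regions and interactions. p-values were adjusted by Benjamini-Hochberg over all genes tested, with calls at FDR under 0.05. limma 3.58.1 (voom) and DESeq2 1.42.0 were alternatives. CPM use TMM-scaled totals. The code was tested on simulated data.

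Named genes are up to 10 members per highest region and the 5 with the smallest p per treatment contrast; the others were named after their values were seen. Members and lists were chosen with earlier results of these data known. Nothing in the labels says that replicates are separate animals, so p-values measure the spread between these samples. Intervals and floors cover counting error only. Values of some members are not reported here; counts over the members include them.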

Additional observations from a re-analysis of the deposited data

Results flagged for a closer look

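Each value here is the CPM of 1 library that lies far outside the spread of its group by Dixon's criterion. The search covered 148 combinations of member and group with a group mean of at least 5 CPM and found 18, and chance alone gives about 1 in 20. The group mean includes the flagged library. In ARC treated, Meis2 (mean 6.95 CPM) and Pax6 (5.65 CPM) passed the 5 CPM limit only through library 2. Their flags followed from that filter and cannot be set against the 1 in 20. No cause was tested.

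ARC treated library 2 held 5 of them, all high: Meis2 at 64.29 (others 0.0903 to 0.943), Pax6 at 43.53 (0.393 to 2.74), Pou3f3 at 55.92 (11.4 to 21.9), Lhx1 at 18 (4.93 to 7.72) and Pou3f2 at 14.83 (2.94 to 8.73). PVN treated library 1 was high in Pou3f4, at 34.07 (13.9 to 20.3), and in Nkx6-2, at 58.12 (18.04 to 38.4). PVN vehicle library 10 was high in Dlx1, at 20.48 (6.88 to 13.7), and low in Lhx5, at 11.8 (21.2 to 26.6). PVN vehicle library 8, one of the 2 shallow ones, was high in Lhx2, at 25.98 (11.5 to 18.6), and in Nkx2-2, at 26.81 (12.2 to 19.6). NTS treated library 9 was high in Pou4f1, a sensory neuron factor, at 62.53 (2.92 to 9.67), and in Lhx5, at 10.01 (3.79 to 6.25).

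Single departures were Dlx2 in ARC treated library 1, low at 17.02 (24.1 to 30.5), Lhx2 in ARC treated library 9, at 13.66 (4.42 to 8.76), Pbx4 in PVN treated library 9, at 13.76 (7.31 to 9.80), Pou3f2 in NTS treated library 7, at 27.92 (17.3 to 21.1), and Pou3f3 in ARC vehicle library 8, at 19.54 (12.9 to 16.2).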

How the results depend on the processing

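The 45 and 46 members called between NTS and each hypothalamic region stayed within 1.5 times those counts under every alternative run. With a test against a 2-fold difference, PVN against ARC gave 19 (5 higher, 14 lower) instead of 33. With treated groups in place of vehicle groups, the PVN over ARC difference of Pou3f3 was -0.082 (FDR = 0.716) and the PVN over NTS difference of Nkx6-2 was -0.0084 (FDR = 0.972). The 1 call in PVN treatment became 2 with DESeq2, 3 with limma-voom, 3 without the libraries numbered 1, and 0 with library totals alone, without the low-count filter, with log10 library total as covariate, without the libraries titled 5553 to 5557 and without those under 0.5 of the median total (vehicle 3 and 8). ARC treatment gave 1 without the libraries numbered 1. Leaving out 1 library at a time gave 0 to 3 called members in PVN treatment, 0 to 1 in ARC, 0 to 0 in NTS, 32 to 35 for PVN over ARC, 42 to 45 for PVN over NTS and 44 to 48 for ARC over NTS. The causes were not tested. No NTS library was under 0.5 of the median total, so that alternative was not run there. No paired analysis was possible because no title number is shared between groups. Apart from gaps and the libraries titled 5553 to 5557, the numbers run in the same repeating order of vehicle and treated libraries in each region, but the labels do not say that a position marks an animal. The regions share animals, so the region tests treat related libraries as independent, and the effect of this was not tested. At these totals, a member at 1 CPM has about 10 counts in a library of median depth. Without the low-count filter, 57 of 81 members were called for PVN over NTS and 60 for ARC over NTS.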
